A study of Mus musculus with 2 samples.

Results

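The cells described here are tumor macrophages that carry RNA of Fcrl5, Xcr1, Spn and Cd300e. A cell was a member when the unique molecular identifiers (UMIs, tags that mark single captured RNA molecules) of these 4 genes summed to at least 4 and the cell passed 7 further gates on raw UMIs. These gates asked for at least 5 UMIs of C1qa, C1qb and C1qc, no UMI of the T cell genes Cd3e, Cd3g and Trac or of Itgae, and at most 1 UMI of the tumor cell genes Krt8, Krt18 and Rhox5. They also allowed at most 2 UMIs of 5 cell cycle genes (Mki67, Top2a, Cdk1, Birc5 and Ccna2), at most 3 of Ccl8, Igf1 and Vcam1, and at most 2 of Mmp12 and Gpnmb. Filtering asked for 500 genes or more per cell, for 1000 UMIs or more, and for a mitochondrial share of no more than 15%. Of the 25402 cells kept, 169 were members. They lay among 4116 macrophages that passed the other gates, and the remaining 3947 are called other macrophages below. Because the 4 gate genes chose the members, their high level in members is no finding.

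MC38 tumors, grown under the skin from a mouse colon cancer line, came from female hosts of the C57BL/6 background that were inoculated at 6 to 8 weeks of age. The hosts were Lmo7+/+ or Lmo7-/-, the latter a knockout in all cells of the host but not in the implanted tumor cells. About 10000 sorted live cells went into each 10x Genomics run, 1 library was made per genotype, and the number of mice behind a library is not given in the sources used here. The files hold 16208 droplets with 98582479 UMIs from the Lmo7+/+ library and 15163 droplets with 80648345 UMIs from the Lmo7-/- library, of which 13542 and 11860 were kept. Both numbers kept exceed the stated input of about 10000 cells, and the sources used here do not explain this.

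With 1 library per genotype nothing could be tested between genotypes, since cells are not replicates. All intervals are 95% intervals for counting error only, and where a few cells hold most UMIs of a gene they are too narrow. Lmo7 itself gave no check of the labels. Members had 0 Lmo7 UMIs in both libraries, which, at a floor of 3 UMIs over the cells, allows up to 12.0 counts per 1000000 UMIs (CPM) in the Lmo7+/+ library and up to 4.67 CPM in the other. In other macrophages Lmo7 was at 1.35 CPM in the Lmo7+/+ library and at 1.83 CPM in the library labelled Lmo7-/-, so it was not lower there. Cells gated as mature dendritic had more, with 93 UMIs (22.95 CPM) and 55 UMIs (17.22 CPM) and overlapping intervals. Implanted tumor cells, which were not knocked out, were at 18.98 and 13.59 CPM. The mature dendritic gate also caught tumor-like cells, so its Lmo7 level cannot check the labels either. How the deleted part of the gene lies to the sequenced tags is not given in the sources used here, and genotypes are therefore named as labelled. The libraries shared 279 droplet barcodes, 175 of them in cells kept in both. None of the Lmo7+/+ members and 5 of the members labelled Lmo7-/- had such a barcode.

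Monocytes enter tumors from the blood and become macrophages there. Classical mouse monocytes carry Ly6C and the chemokine receptor CCR2, whereas nonclassical monocytes, which patrol vessel walls, lose both and gain CD43, the product of Spn. XCR1, the receptor of the chemokine XCL1, is best known from type 1 dendritic cells, which present antigen to CD8+ T cells. CD300e is an activating receptor of the CD300 family of myeloid cells, FCRL5 belongs to the Fc receptor-like family best known from B cells, and Klra17 belongs to the Ly49 family of lectin-like receptors.

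The library labelled Lmo7-/- held more members. In the Lmo7+/+ library 42 of 1934 gated macrophages were members, a share of 2.17% (exact binomial interval 1.57 to 2.92%). In the library labelled Lmo7-/- the share was 5.82% (4.87 to 6.89%), from 127 of 2182 macrophages. The difference was 3.65 percentage points (Newcombe interval 2.47 to 4.85). Among all kept cells the shares were 0.310% and 1.07%. Members were deeper than other macrophages, with a median of 5911.5 against 3561 UMIs in the Lmo7+/+ library and of 4779 against 3065 UMIs in the other. Depth helps a cell reach 4 gate UMIs, so the share was also taken among cells of 3000 to 12000 UMIs, where it was 3.48% and 9.66%. With cells drawn down to 3000 UMIs, which left out 780 and 1018 shallower macrophages, and a minimum of 2 gate UMIs, the shares were 7.02% of 1154 cells and 15% of 1164 cells. Median mitochondrial shares were alike, at 5.87% in members and 5.54% in other macrophages of the Lmo7+/+ library and at 5.71% and 5.40% in the other. Scrublet, which scores droplets against simulated doublets, marked 0 of 169 members, which by the exact binomial interval allows up to 8.41% of the 42 and up to 2.86% of the 127, while it marked 3.75% and 2.87% of other macrophages.

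The threshold cut through a gradient. With exactly 4 gate UMIs, just inside it, lay 16 and 45 members, and with 3, just outside, lay 36 and 77 macrophages. The median member had 5.5 gate UMIs in the Lmo7+/+ library and 5 in the other, and the highest had 15 and 18.

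The gate genes carried by members are given as a description, since they chose the members and the share of one limits the others. Cd300e was found in 81.0% of Lmo7+/+ members (65.9 to 91.4%) and in 80.3% of those labelled Lmo7-/- (72.3 to 86.8%). Spn was found in 76.2% (60.5 to 87.9%) and 61.4% (52.4 to 69.9%). Xcr1 went the other way, with 45.2% (29.8 to 61.3%) and 75.6% (67.2 to 82.8%). Fcrl5 was found in 38.1% (23.6 to 54.4%) and 56.7% (47.6 to 65.5%). Spn gave 37.5% of all gate UMIs of Lmo7+/+ members and 20.2% of those labelled Lmo7-/-, whereas Xcr1 gave 17.5% and 31.3%. The most common combination was Spn with Cd300e alone in the Lmo7+/+ library, in 11 of 42 members, and all 4 genes together in the other, in 24 of 127. Only 1 gate gene was detected in 3 of 42 and 10 of 127 members. Cd300e alone reached 4 UMIs in 10 and 21 members, Spn in 12 and 12, Xcr1 in 5 and 21 and Fcrl5 in 1 and 1.

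Pairs of gate genes were counted in cells of equal depth, as a description, since their sum chose the members. Among gated macrophages thinned to 3000 UMIs in the library labelled Lmo7-/-, 36.9% of cells with an Xcr1 UMI also had a Cd300e UMI (29.4 to 44.9%), against 9.16% of cells without (7.45 to 11.1%). Before thinning these shares were 43.6% and 12.1%. Fcrl5 was found in 24.4% of cells with Xcr1 and 3.49% of cells without, and in 25.8% of cells with Cd300e and 3.46% of cells without. In the Lmo7+/+ library 17.8% of cells with Xcr1 had Cd300e (8.0 to 32.1%), against 5.95% of cells without (4.63 to 7.51%). There Fcrl5 was found in 2.22% of 45 cells with Xcr1 (0.0562 to 11.8%) and 1.80% of cells without (1.10 to 2.77%), a difference not detectable at this depth, and in 9.46% of cells with Cd300e (3.89 to 18.5%) and 1.30% of cells without (0.710 to 2.17%). Klra17, which the gate did not use, is with the 4 gate genes 1 of the 5 label genes, chosen with earlier results of these data known. It was found in 40.5% of cells with Cd300e and 12.5% of cells without in the Lmo7+/+ library, and in 61.6% and 22.6% in the other. Treml4, another receptor gene of nonclassical monocytes, was found in 16.2% of cells with Cd300e (8.67 to 26.6%) and 7.13% of cells without (5.67 to 8.83%) in the Lmo7+/+ library, and in 10.6% (6.18 to 16.6%) and 8.49% (6.85 to 10.4%) in the other. By Xcr1 its shares were 6.67% and 7.75%, and 13.75% and 7.97%.

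Most cells that reached 4 gate UMIs were lost to the other gates. Among all kept cells, 198 and 392 had at least 4 gate UMIs, and 42 and 127 of them passed. The cell cycle gate removed 114 and 181, the gate on Ccl8, Igf1 and Vcam1 48 and 92, and the C1q gate 44 and 57. The T cell gate removed 25 and 64, the Itgae gate 27 and 27, the tumor cell gate 15 and 12, and the Mmp12 and Gpnmb gate 7 and 6. Cells could fail several gates. Of macrophages that failed only the cell cycle gate, 6.58% of 851 had at least 4 gate UMIs in the Lmo7+/+ library (5.01 to 8.46%) and 13.9% of 712 in the other (11.4 to 16.7%). Both shares lay above those of the noncycling macrophages, at median depths of 5887 and 5314 UMIs. Other macrophages, which are noncycling, had medians of only 3561 and 3065 UMIs, and depth helps a cell reach 4 gate UMIs. In noncycling macrophages of 3000 to 12000 UMIs the shares were 3.48% (2.50 to 4.71%) and 9.66% (8.02 to 11.5%), so the gap was smaller there. Macrophages that failed only the Ccl8, Igf1 and Vcam1 gate had at least 4 gate UMIs in 1.65% of 667 (0.826 to 2.93%) and 3.07% of 1074 cells (2.12 to 4.29%). Of macrophages with Mmp12 and Gpnmb, 0 of 204 (up to 1.79%) and 1 of 201 reached it. The higher share in the library labelled Lmo7-/- was thus also found in cycling macrophages, which are not members.

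**Figure D1:**
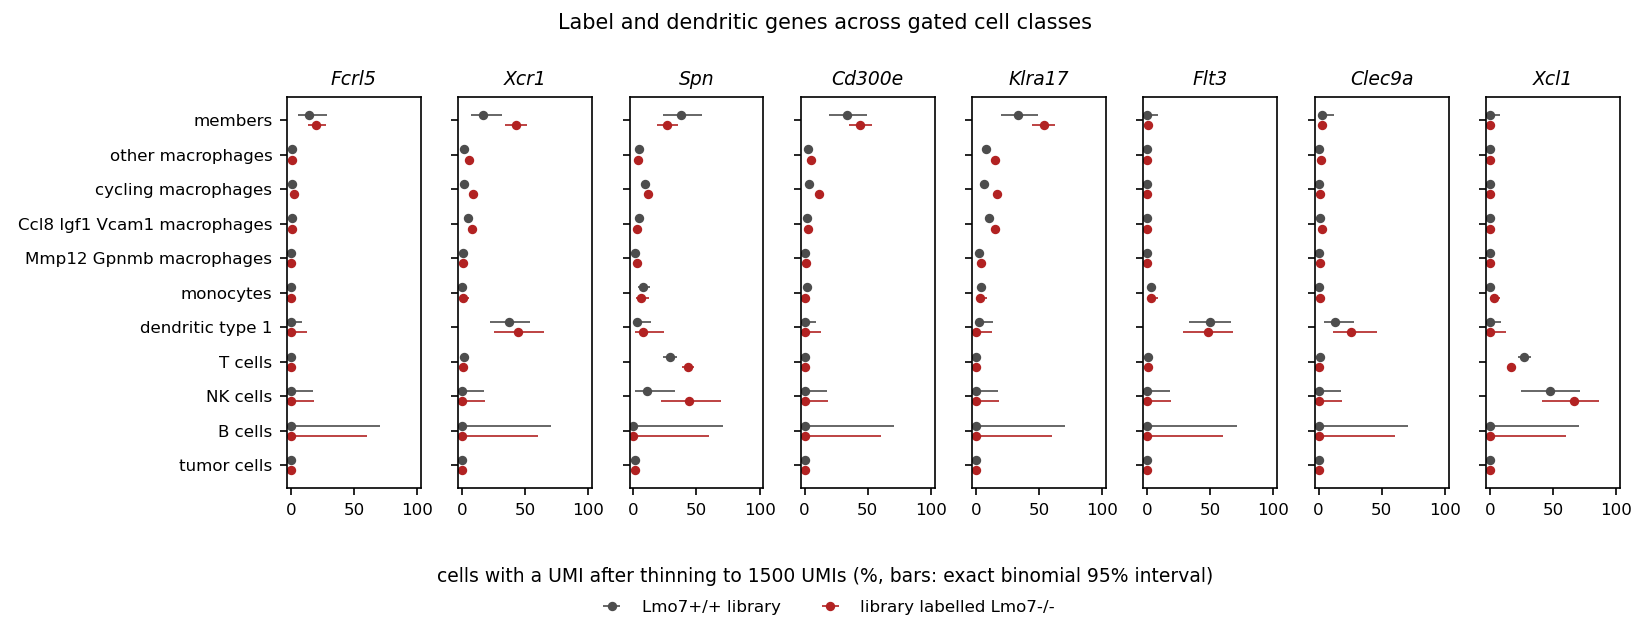
Share of cells with a UMI of each gene (horizontal axis, %) after cells were thinned to 1500 UMIs and shallower cells (0 and 2 members) left out, in members and other gated cell classes (rows) of the Lmo7+/+ library (grey) and the library labelled Lmo7-/- (red), with exact binomial intervals. Xcr1 was shared with the gated dendritic cells, Spn with T cells, and Fcrl5, Cd300e and Klra17 were found in macrophages and stayed near 0 in dendritic, T and tumor cells.

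Across the cell classes of the tumor, the label genes had different neighbors. Fcrl5 was at 104 CPM in Lmo7+/+ members (26 UMIs) and 166 CPM in members labelled Lmo7-/- (107 UMIs), and at 4.59 and 8.57 CPM in other macrophages. It was at 13.05 and 21.2 CPM in cycling macrophages and at 0 and 0.0525 CPM in tumor cells (gated by Krt8, Krt18 and Rhox5), a measure of free RNA. Cd300e was at 401 and 429 CPM in members and at 0.161 and 0.105 CPM in tumor cells. Xcr1 was at 196 and 384 CPM in members and at 392 and 487 CPM in cells gated as type 1 dendritic by Itgae and Flt3, which were 38 and 28 cells. Those dendritic cells had 0 UMIs of Fcrl5 in both libraries, and Klra17 was at 4.17 and 0 CPM there. Spn was at 421 and 247 CPM in members and at 253 and 383 CPM in T cells. Xcl1, which encodes the ligand of XCR1, had 0 UMIs in members and was at 1483 and 1702 CPM in NK cells and at 485 and 407 CPM in T cells. Only 23 and 22 NK cells were gated.

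Outside the gate genes, members carried macrophage RNA. Of 11 macrophage markers that could be compared, 1 was at least 2-fold higher in members in both libraries and 2 were lower, against 1.32% higher and 2.8% lower of all 9094 genes compared. Adgre1, which encodes F4/80, was at 477 CPM in members and 321 CPM in other macrophages of the Lmo7+/+ library, and at 524 and 372 CPM in the other. Csf1r, the receptor of macrophage colony-stimulating factor, was at 613 and 767 CPM, and at 599 and 762 CPM. Ms4a7, a tetraspan membrane protein of macrophages, was the higher one, with log2 ratios of 1.35 and 1.24. Cd14, the co-receptor for bacterial lipopolysaccharide, was lower, at 793 against 1732 CPM and at 893 against 1873 CPM. Mertk, a receptor for apoptotic cells, was lower too, with 1 and 11 UMIs in members.

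Markers of other cell types were measured in the same way. Of the 8 T cell markers, Cd3e, Cd3g and Trac were gated to 0 and Cd2 and Lck were also at 0, and the list summed to 4.01 CPM in Lmo7+/+ members and 20.2 CPM in those labelled Lmo7-/-. The 8 NK cell markers summed to 0 and 4.67 CPM, with Ncr1, Klrb1c and Gzma at 0. The 8 tumor cell markers summed to 20.04 and 10.9 CPM, and to 27.7 and 22.2 CPM in other macrophages. Krt8, Krt18 and Krt7 were at 0 in members, and the gate limited Krt8, Krt18 and Rhox5, the most abundant of the list, in both kinds of cells. The 8 neutrophil markers summed to 76.1 and 82.4 CPM against 70.5 and 84.7 CPM, mostly from Csf3r, while S100a8, S100a9 and Ly6g were at 0. The B cell list summed to 353 and 395 CPM in members against 116 and 113 CPM in other macrophages, and Ighm gave most of it. Ms4a1, Cd79a and Cr2, which mark B cells, were at 0 in members. Ighm was found in 30 of 42 and 85 of 127 members and its highest cell held 14.5% and 3.56% of its UMIs. Cd79b, the signaling partner of the B cell receptor, had 8 and 22 UMIs.

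The type 1 dendritic cell list was measured as well, since Xcr1 belongs to it. Flt3, the growth factor receptor that these cells depend on, had 0 UMIs in Lmo7+/+ members and 3 in those labelled Lmo7-/- (4.67 CPM), against 267 and 316 CPM in the gated dendritic cells. Clec9a, a receptor for dead cells, was at 12.0 and 17.1 CPM in members and at 154 and 177 CPM in dendritic cells. Itgae was gated to 0, and Zbtb46 and Snx22 were at 0. Of 11 list genes compared, only the transcription factor gene Batf3 was at least 2-fold higher in both libraries (80.1 against 30.9 CPM and 90.2 against 32.6 CPM), and Ifi205 was lower. Over all 9094 genes, 1.32% were higher and 2.8% lower. The list without gate genes summed to 1391 CPM in Lmo7+/+ members with Xcr1 (1185 to 1622) and 1390 CPM in those without (1197 to 1606). In the library labelled Lmo7-/- it summed to 1779 CPM (1662 to 1901) and 1569 CPM (1378 to 1780). The most abundant gene of the list was Cadm1, an adhesion molecule, at 553 and 809 CPM in members and 329 and 435 CPM in other macrophages. Siglece was at 687 and 684 CPM in Lmo7+/+ members with and without Xcr1 and at 737 and 648 CPM in the other library, with overlapping intervals. Other values differed between members with and without Xcr1. The macrophage list without gate genes summed to 6645 CPM (6185 to 7130) and 10002 CPM (9472 to 10554) in the Lmo7+/+ library and to 9980 CPM (9702 to 10264) and 9018 CPM (8550 to 9505) in the other, so its order was not the same in both. Apoe, an apolipoprotein, was at 1451 and 2743 CPM and then at 2786 and 2353 CPM. It is itself a gene of the macrophage list, so its order is no separate result. H2-Ab1, an MHC class II chain, was higher with Xcr1 in both, at 6559 and 4388 CPM and at 9200 and 8357 CPM. Klra17 was at 266 and 316 CPM, with overlapping intervals, and at 598 and 408 CPM. When cells with a UMI of Flt3 or Clec9a were left out, 39 and 117 members remained and the shares were 2.04% and 5.57%. A UMI of Flt3, Clec9a, Wdfy4 or Cadm1 was found in 90.5% and 95.3% of members and in 60.8% and 66.2% of the shallower other macrophages. Without all such cells only 4 and 6 members remained, with shares of 0.536% and 0.857% and a difference of 0.321 percentage points (-0.634 to 1.37), too few cells to show a difference.

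Across 9094 genes that could be compared, 120 (1.32%) were at least 2-fold higher in members than in other macrophages in both libraries and 255 (2.8%) were at least 2-fold lower. Compared genes had at least 50 UMIs over the cells, and the genes of the gates were left out. The ratio of members to other macrophages is given below as a log2 ratio of CPM, first for the Lmo7+/+ library and then for the library labelled Lmo7-/-. Over all 9094 genes its median was -0.02 and -0.04. The genes named are the 20 highest and the 10 lowest by the weaker of both ratios, and members of lists chosen by function.

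**Figure D2:**
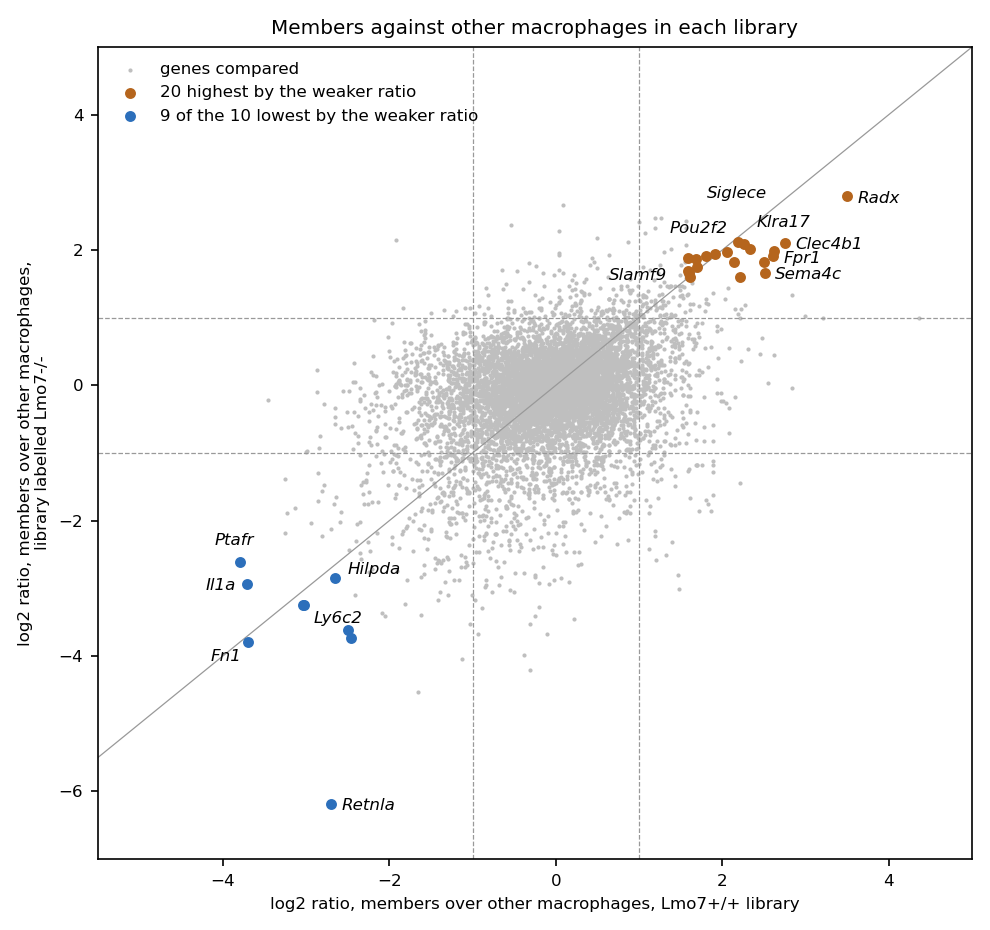
Log2 ratio of CPM in members over other macrophages in the Lmo7+/+ library (horizontal) and the library labelled Lmo7-/- (vertical) for the genes compared (grey). The 20 genes with the highest (brown) and 9 of the 10 with the lowest (blue) weaker ratio lie past the dashed 2-fold lines in both libraries, Retnla is drawn at its bound, and the remaining gene is not drawn.

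Among the named higher genes that encode receptors, Klra17 was at 293 CPM in Lmo7+/+ members and 61.0 CPM in other macrophages, and at 552 and 129 CPM in the library labelled Lmo7-/-. Its log2 ratios were 2.26 (1.88 to 2.62) and 2.09 (1.91 to 2.27). Siglece, an inhibitory receptor for sialic acid, was at 685 and 164 CPM and at 716 and 183 CPM, with log2 ratios of 2.06 (1.82 to 2.29) and 1.96 (1.81 to 2.12). Siglece was found in 38 of 42 and 114 of 127 members, and Klra17 in 26 and 100. Siglece was also found in 86.1% and 80.5% of macrophages with 3 gate UMIs, just outside the threshold. Fpr1, a receptor for formylated bacterial peptides, was at 216 against 35.5 CPM and at 219 against 58.6 CPM. Its neighbor in the family, Fpr2, had log2 ratios of 1.49 and 1.63. Slamf9, a SLAM family receptor of myeloid cells, was at 862 against 287 CPM and at 1010 against 314 CPM. Sema4c, a membrane-bound semaphorin, had log2 ratios of 2.51 and 1.67.

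Among the other named higher genes, Pou2f2, which encodes the transcription factor OCT2, was at 601 against 159 CPM and at 590 against 153 CPM, with log2 ratios of 1.92 (1.66 to 2.16) and 1.94 (1.77 to 2.11). Cebpd, a C/EBP transcription factor, was at 52.1 against 17.0 CPM and at 56.0 against 18.5 CPM. Radx, a replication fork protein, had the highest ratios at 3.50 and 2.79, but from 8 and 15 UMIs in members. Sh3bp5 had log2 ratios of 2.19 and 2.12, from 16 and 40 UMIs. Asb2, a subunit of a ubiquitin ligase, had 1.58 and 1.88, and Gcnt1, a glycan branching enzyme, had 1.69 and 1.74. Among secreted proteins, the chemokine gene Cxcl14 had log2 ratios of 2.21 and 1.60, the serine protease gene Htra4 1.80 and 1.91, and Il16 2.33 and 2.02 from 9 and 15 UMIs. Ighm, the constant region of immunoglobulin M, had 1.69 and 1.87. Nipa1, B3galt4, Gins1 and 9630028I04Rik completed the 20 with at most 10 UMIs each in members of either library.

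The Clec4 genes named here, all on chromosome 6, had ratios in both directions. This set was chosen after its values were seen, from Clec4b1, which is among the 20. It is no fixed list, and other lectin-like genes of the chromosome, such as Klra17, were not counted with it. Clec4a1 (chr6:122921848-122934619 on GRCm38, the build also known as mm10) had log2 ratios of 1.50 and 1.33, and Clec4a3 (chr6:122952515-122969875) had 1.31 and 1.18. Clec4b1 (chr6:123049962-123071555) had 2.75 and 2.11, and Clec4a2 (chr6:123106428-123143999) had 0.89 and 0.90, under 2-fold. The other 3 genes named here were lower. Clec4n, which encodes Dectin-2 (chr6:123229843-123247021), had -1.09 and -1.20. Clec4d (chr6:123262111-123275265) had 0 and 4 UMIs in members. Clec4e, which encodes the mycobacterial glycolipid receptor Mincle (chr6:123281789-123289870), had 0 and 19 UMIs in members against 850 and 957 in other macrophages.

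Receptor families of the label genes were counted beside all 9094 genes compared, of which 1.32% were higher and 2.8% lower. In the CD300 family 1 of 5 genes compared was at least 2-fold higher, the inhibitory receptor gene Cd300lf, with log2 ratios of 1.20 and 1.18. In the Ly49 family, Klra17 was higher and Klra2 had 0.90 and 0.90. Of 8 Fc gamma receptor and adaptor genes, 1 was higher. This was Fcgr4, an activating receptor for IgG, at 1006 against 380 CPM and at 1985 against 799 CPM. Fcgr2b, the inhibitory receptor, had -0.77 and -1.15. Of 16 leukocyte immunoglobulin-like and paired receptors compared, 3 were higher (Clec4a1, Clec4a3 and Sirpb1a) and none was lower, and their median was 0.46 and 0.53.

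Members were low in classical monocyte genes. Of 10 classical monocyte markers compared, 7 were at least 2-fold lower and none was higher, against 2.8% lower of all genes, and the median was -1.64 and -2.96. Ly6c2 was at 28.1 against 229 CPM and at 14 against 132 CPM, and 2 of 42 and 5 of 127 members had a UMI of it. Ccr2 was at 56.1 against 173 CPM and at 21.8 against 156 CPM. Fn1, fibronectin, had 2 and 5 UMIs in members, at 8.01 against 104 CPM and at 7.78 against 108 CPM. Its log2 ratios were -3.69 (-6.74 to -1.84) and -3.80 (-5.43 to -2.57).

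The nonclassical monocyte list summed to 3350 CPM in members and 2842 CPM in other macrophages of the Lmo7+/+ library, and to 3713 and 2864 CPM in the other. Of 10 genes compared 1 was higher (Pou2f2) and 1 was lower (Cd36, a scavenger receptor), against 1.32% and 2.8% of all 9094 genes. The median of the list was 0.14 and 0.34. Cx3cr1, the fractalkine receptor, was at 713 against 472 CPM and at 576 against 364 CPM, with log2 ratios of 0.59 and 0.66. Itgal, an integrin of nonclassical monocytes, had 0.14 (-0.31 to 0.55) and 0.37 (0.12 to 0.61). Nr4a1, the transcription factor that these monocytes depend on, was at 192 against 370 CPM and at 216 against 310 CPM, with -0.94 and -0.52. Ace, Ear2, Adgre4, Fabp4 and Pglyrp1 were at 0 in members of both libraries. Of these only Ear2, at 10.1 and 19.4 CPM, was above 2 CPM in other macrophages, so at this depth the other zeros do not separate members from them. The members are called macrophages by their C1q gate and are not called nonclassical monocytes.

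Of 10 alternative activation genes compared, 5 were lower and none was higher, against 2.8% lower and 1.32% higher of all 9094 genes. Retnla had 0 UMIs in all 169 members, against 78.3 CPM and 340 CPM in other macrophages. With the 0 set at a floor of 3 UMIs over the members, the bound on its log2 ratio was -2.70 and -6.19. Almost all of its UMIs, 578 of 580 and 2417 of 2419, lay in macrophages with 0 gate UMIs, and those with 1 gate UMI held 1 and 0, so its absence is not particular to members. Mrc1, the mannose receptor CD206, was at 44.1 against 115 CPM and at 34.2 against 112 CPM. Of 13 hypoxia and glycolysis genes 3 were lower (Hilpda, Ndrg1 and Egln3), and Hilpda, a lipid droplet protein induced by low oxygen, was at 36.1 against 227 CPM and at 29.6 against 213 CPM. Among the named lower genes were also Spp1, osteopontin, with 1 and 3 UMIs in members, and the cytokine genes Il1a (2 and 10 UMIs) and Csf1 (1 and 1). Ptafr, the receptor of platelet activating factor, was at 8.01 against 111 CPM and at 17.1 against 105 CPM, and Clec10a, a lectin, had 1 UMI in members of each library.

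Chemokine genes divided. Of 17 compared, 4 were higher (Ccl3, Ccl4, Ccl7 and Cxcl14) and 4 lower (Cxcl1, Cxcl2, Cxcl10 and Pf4). Over all 9094 genes, 1.32% were higher and 2.8% lower. Ccl4, a chemokine for monocytes and T cells, was at 705 against 334 CPM and at 1333 against 280 CPM. Without its highest cell, which held 17.0% of its UMIs, Ccl4 was at 599 CPM in Lmo7+/+ members and under 2-fold there. The highest cell held 22.4% of the Ccl3 UMIs and 23.6% of the Ccl7 UMIs of Lmo7+/+ members. Ccl3 had log2 ratios of 1.00 (0.59 to 1.39) and 2.41 (2.20 to 2.63), so it lies at the 2-fold line in the Lmo7+/+ library. Cxcl2, which attracts neutrophils, was at 168 against 554 CPM and at 129 against 518 CPM. Of 10 chemokine receptor genes compared, Fpr1 and Fpr2, counted with them, were higher and Ccr1, Ccr2 and Cmklr1 were lower.

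The MHC class II list had 0 higher and 1 lower (Cd80) of 14, against 1.32% higher and 2.8% lower of all 9094 genes. Its median was -0.67 and -0.38. H2-Ab1 was at 5402 against 10452 CPM and at 8998 against 12364 CPM. None of 19 lysosome genes and none of 23 interferon gamma response genes passed 2-fold in both libraries in either direction. Of 18 lipid handling genes 3 were higher (Slamf9, Acp5 and Pld4) and 3 lower (Spp1, Fabp5 and Cd9). Among 27 myeloid transcription factor genes, Batf3, Pou2f2 and Tcf7l2 were higher and Bhlhe40 was lower. Of the 8 phagocytosis genes that the study follows, Pld4 was higher and none was lower, with a median of 0.52 and 0.49. That list was chosen by the study, in part on its own samples.

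**Figure D3:**
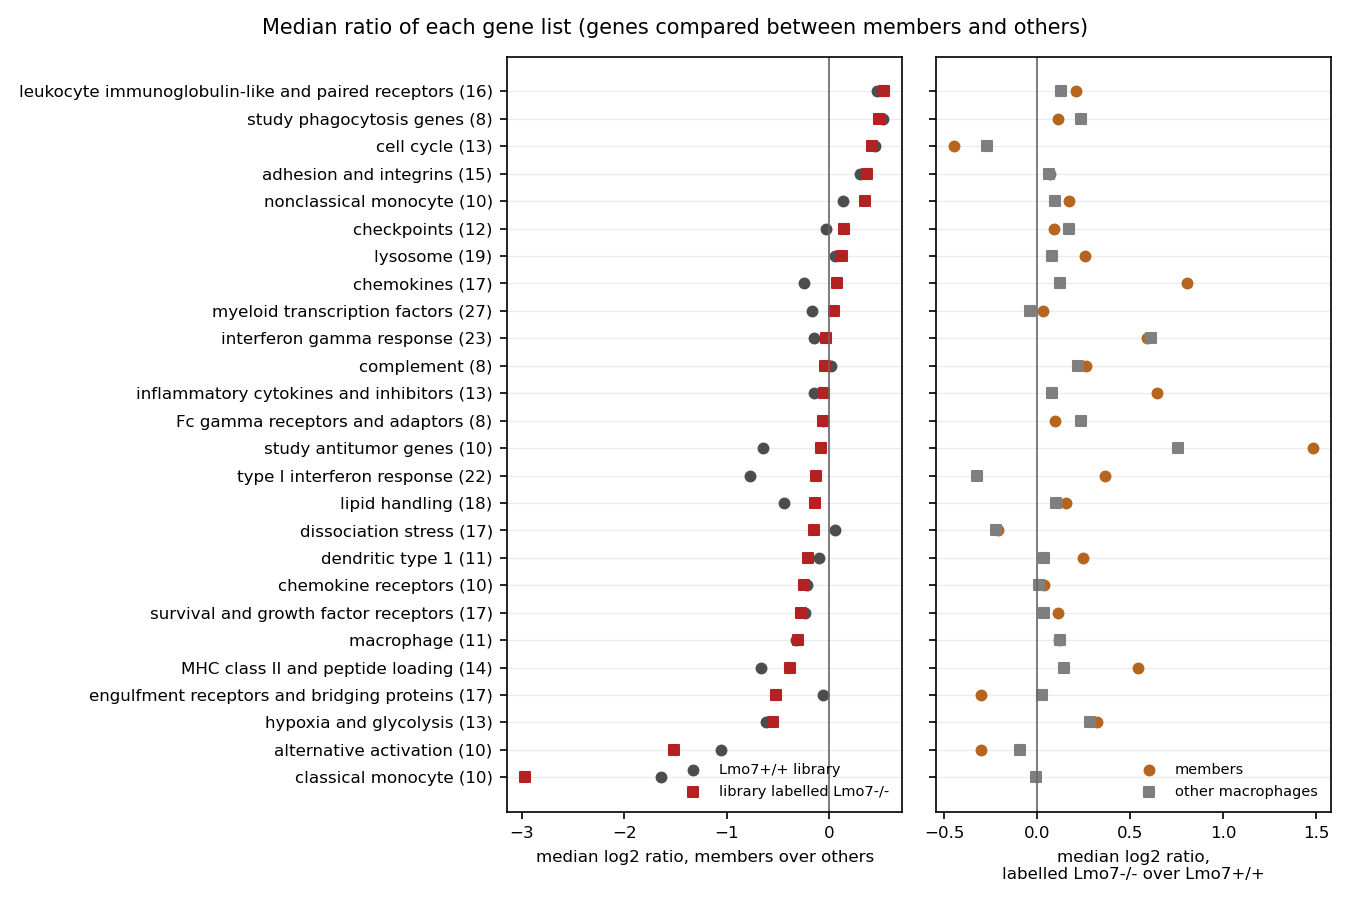
Median log2 ratio of each gene list with at least 8 genes compared (number in parentheses). Left, members over other macrophages in the Lmo7+/+ library (grey) and the library labelled Lmo7-/- (red). Right, the library labelled Lmo7-/- over the Lmo7+/+ library in members (brown) and other macrophages (grey), over those list genes with at least 50 UMIs. Classical monocyte and alternative activation genes had the lowest medians at left, and the study's antitumor genes the highest in members at right.

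Levels of some named genes were also followed over the number of gate UMIs. Siglece, Pou2f2 and Klra17 were named for being high in members, so their course is a description. From macrophages with 0 to those with 10 or more gate UMIs, Siglece went from 131 to 866 CPM in the Lmo7+/+ library and from 128 to 842 CPM in the other, with every step upward. Pou2f2 went from 130 to 712 CPM and from 111 to 771 CPM, also at every step. Klra17 did the same, from 45.1 to 347 CPM and from 80.5 to 720 CPM. Just outside the threshold, at 3 gate UMIs, Siglece was at 494 and 454 CPM, and just inside, at 4 to 5, it was at 563 and 635 CPM. Ly6c2 went from 251 and 161 CPM at 0 gate UMIs to 0 at 10 or more in both libraries. Hilpda went from 249 to 38.5 CPM and from 244 to 10.1 CPM. H2-Ab1 went from 10968.5 to 4775 CPM and from 12501 to 5681 CPM. Median depth went along, from 3355 to 7079 UMIs and from 2889 to 6690 UMIs, and CPM corrects the levels but not the choice of cells for it. The highest class held only 7 and 15 cells.

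**Figure D4:**
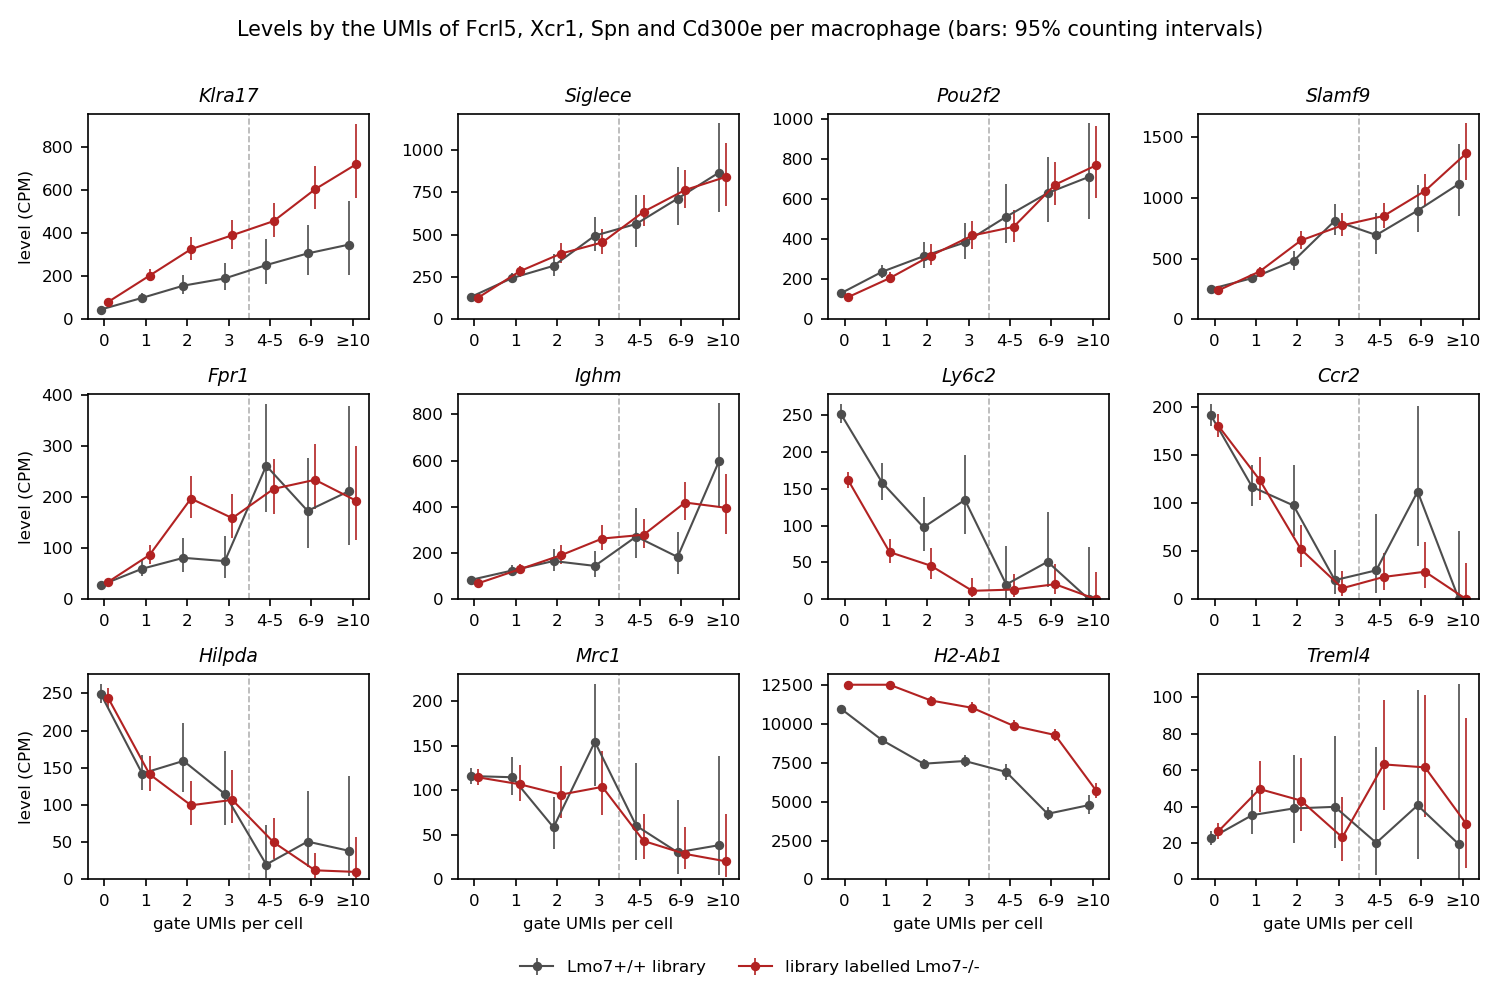
Level of 12 genes that the gate did not use (vertical axis, CPM from 0) against the UMIs of Fcrl5, Xcr1, Spn and Cd300e in a macrophage (horizontal axis), with exact Poisson intervals. Members lie to the right of the dashed line. Klra17, Siglece, Pou2f2 and Slamf9 were higher and Ly6c2 and Hilpda lower at 10 or more gate UMIs than at 0 in both libraries, while Treml4 showed no steady course.

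Members lay close to each other when all genes of the rule were left out. Among the 20 nearest cells of a member in the space of 30 principal components of 2000 variable genes, 15.2% were members on average in the Lmo7+/+ library, where 2.17% of all gated macrophages were. In the library labelled Lmo7-/- it was 39.9%, against 5.82% of all. For other macrophages at least as deep as the median member, the averages were 1.15% and 4.42%. No member neighbor was found for 6 of 42 and 4 of 127 members.

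Of the named genes, 3 had a match to a PU.1 motif in a promoter. Promoters were taken as 250 bases before to 50 after an annotated start from RefSeq (GRCm38.p6) and searched on both strands for AAAGGTCA (the element of NR4A factors), GAGGAAGT (PU.1) and TTGCGCAA (C/EBP). All 5 label genes had a promoter in the table, and none held any of these letters. Of the other 19 named higher genes 15 had one, with 22 promoters in all, and GAGGAAGT was found in 3 of them, those of Slamf9, Sh3bp5 and Gcnt1. Of all 32851 promoters 3.2% held it, 1.51% held AAAGGTCA and 0.183% held TTGCGCAA. The promoter of Slamf9 (chr1:172475110-172475409, plus strand) and that of Sh3bp5 (chr14:31436051-31436350, minus strand) are shown because both hold the match at position -8 from the start. Capitals mark the match, which in Sh3bp5 reads ACTTCCTC, the reverse complement. A match is only a description of letters.
Slamf9: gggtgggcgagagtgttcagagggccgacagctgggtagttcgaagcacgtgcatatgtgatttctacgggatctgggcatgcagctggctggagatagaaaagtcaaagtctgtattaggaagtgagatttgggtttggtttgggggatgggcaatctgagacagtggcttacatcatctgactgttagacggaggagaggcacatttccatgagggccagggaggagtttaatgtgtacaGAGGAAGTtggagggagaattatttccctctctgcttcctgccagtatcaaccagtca
Sh3bp5: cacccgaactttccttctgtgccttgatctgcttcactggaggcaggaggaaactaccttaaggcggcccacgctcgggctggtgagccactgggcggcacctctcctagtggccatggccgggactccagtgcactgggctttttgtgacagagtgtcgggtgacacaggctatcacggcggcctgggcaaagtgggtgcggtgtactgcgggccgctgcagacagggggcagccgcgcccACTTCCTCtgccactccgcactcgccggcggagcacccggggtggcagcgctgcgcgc

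In the comparison of libraries within members, 52 (1.84%) of 2826 genes with at least 50 UMIs were at least 2-fold higher in the library labelled Lmo7-/- and 26 (0.92%) were at least 2-fold lower. In simulated data with counting error only, 1.10% of unchanged genes passed 2-fold in either direction here, so part of these calls can come from counting error. With TMM scaling, which shifted the median of all genes from -0.02 to 0.11, the numbers were 84 and 13. In other macrophages, which gave 9703 genes, 53 (0.546%) were higher and 51 (0.526%) lower. These shares cannot be set against each other, because members gave far fewer UMIs, 249551 and 642830 against 7405351 and 7119191. The genes named are the 10 highest and 10 lowest among those with at least 100 UMIs in members, and ratios are the library labelled Lmo7-/- over the Lmo7+/+ library. Xcr1-carrying cells made up more of the members labelled Lmo7-/- (above), and its part in these ratios was not tested.

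Of 18 interferon gamma response genes compared in members, 6 were higher and none lower, against 1.84% and 0.92% of all 2826 genes. Their median log2 ratio was 0.59 in members and, over 23 genes, 0.61 in other macrophages, against -0.02 and -0.07 over all genes. Gbp2b, a guanylate-binding protein, was at 28.1 CPM in Lmo7+/+ members (7 UMIs) and 191 CPM in those labelled Lmo7-/- (123 UMIs). Its log2 ratio was 2.77 (1.68 to 4.11) in members and 1.52 (1.35 to 1.69) in other macrophages. Cxcl9, a chemokine for T cells, was at 537 and 1543 CPM, and 16 of 42 and 101 of 127 members had a UMI of it. Its ratio was 1.52 (1.26 to 1.79) against 1.11 in other macrophages, and 0.97 in members at a minimum of 3 gate UMIs. Iigp1, an interferon-induced GTPase, had 1.71 and 0.84, Il18bp, the binding protein of interleukin 18, 1.65 and 1.15, and Cd274, which encodes PD-L1, 1.29 (0.75 to 1.88) and 0.91.

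Some chemokine and cytokine values rested on few Lmo7+/+ cells. Ccl5, a chemokine for T cells, was at 64.1 CPM in Lmo7+/+ members and 443 CPM in those labelled Lmo7-/-, a log2 ratio of 2.79 (2.07 to 3.62) against 0.76 in other macrophages. Only 3 of 42 Lmo7+/+ members had a Ccl5 UMI and 1 cell held 14 of the 16 UMIs, while 38 of 127 members labelled Lmo7-/- had one. Among the 36 Lmo7+/+ macrophages with 3 gate UMIs 1 cell held 105 of 119 Ccl5 UMIs, and with a minimum of 3 gate UMIs the ratio was 0.25. Tnf, tumor necrosis factor, was at 104 and 291 CPM, with a ratio of 1.48 (0.88 to 2.13) in members and 0.11 (-0.06 to 0.27) in other macrophages. At a minimum of 3 gate UMIs it was 0.32, and 1 of the added Lmo7+/+ cells held 48 of their 57 Tnf UMIs. Ccl4 was found in 20 of 42 and 80 of 127 members. Ccl3 and Ccl4 had 0.82 and 0.92 in members and -0.59 and -0.26 in other macrophages. Rsad2, an antiviral protein induced by type I interferon, had 2.38 (1.09 to 4.05) in members from 5 and 67 UMIs and -0.38 in other macrophages. Of the 9 antitumor genes that the study follows and that could be compared, 6 were higher and none was lower. Of all 2826 genes, 1.84% were higher and 0.92% lower. The antitumor list had a median of 1.48 over these 9 genes in members and 0.76 over 11 genes in other macrophages. Those medians are not of the same genes. The study chose that list in part on these libraries. Of its pro-tumor genes 3 could be compared in members, of which 1 was lower and none was higher. Their median was 0.21 in members and, over 4 genes, -0.25 in other macrophages.

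**Figure D5:**
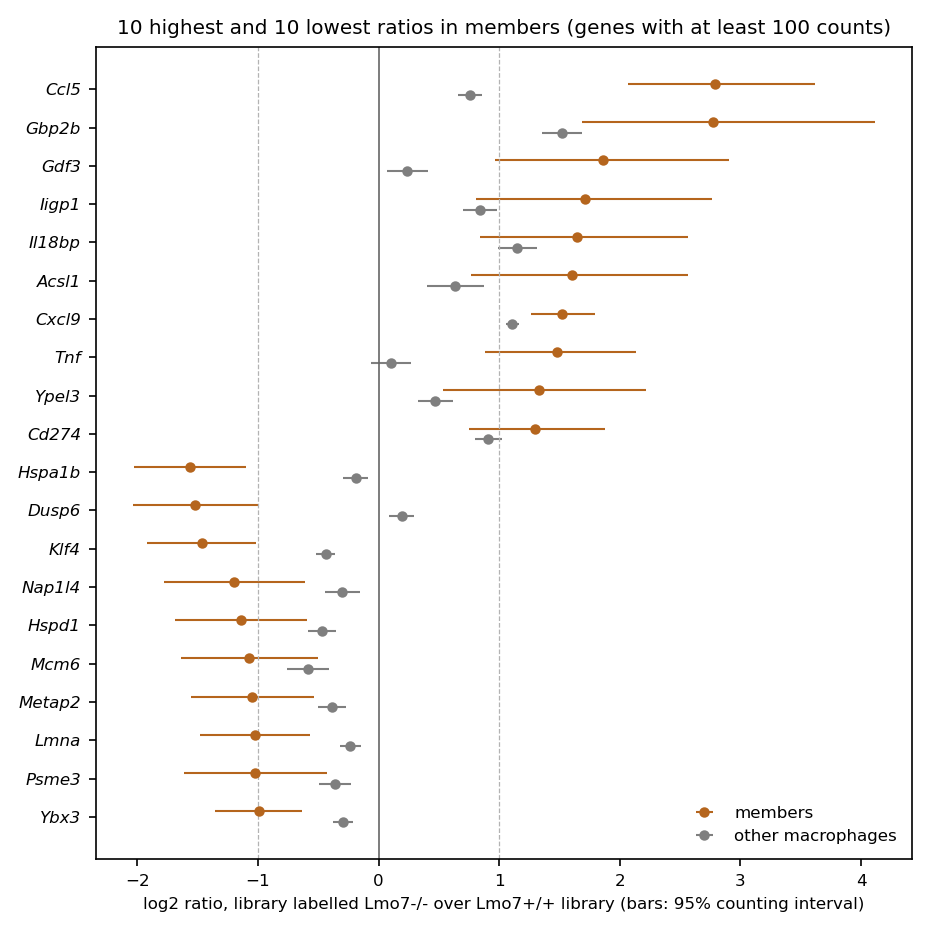
Log2 ratio of the library labelled Lmo7-/- over the Lmo7+/+ library (horizontal axis) with 95% counting intervals, in members (brown) and in other macrophages (grey), for the 10 highest and 10 lowest genes in members with at least 100 UMIs there. Dashed lines mark 2-fold. Gbp2b, Il18bp and Cxcl9 were past 2-fold in both kinds of cells, and Dusp6 was lower in members and slightly higher in other macrophages.

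Gdf3, a TGF-beta family ligand, had a log2 ratio of 1.86 in members and 0.24 in other macrophages, and 0.32 in members at a minimum of 3 gate UMIs. Acsl1, which activates fatty acids, had 1.61 and 0.64, and Ypel3 1.33 and 0.47. Klra17 was higher in the library labelled Lmo7-/- in both kinds of cells, with 0.92 (0.55 to 1.30) and 1.08 (0.92 to 1.25). Fcgr4 did the same, with 0.98 and 1.07. MHC class II chains had ratios of 0.82 for H2-Aa and 0.74 for H2-Ab1 in members and 0.31 and 0.24 in other macrophages.

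Among genes lower in members labelled Lmo7-/-, Hspa1b, a heat shock protein, was at 349 CPM in Lmo7+/+ members and 118 CPM in the others, a log2 ratio of -1.56 (-2.02 to -1.10), against -0.19 in other macrophages. Its 87 UMIs in the Lmo7+/+ library came from 5 cells, of which 1 held 35, and at a minimum of 3 gate UMIs the ratio was -0.41. Dusp6, a phosphatase that acts on ERK, was at 277 and 96.4 CPM, with -1.52 (-2.04 to -1.0) in members and 0.19 (0.09 to 0.29) in other macrophages. Klf4, a transcription factor, was at 353 and 128 CPM, with -1.47 (-1.92 to -1.02) and -0.44. In each of Dusp6 and Klf4 a single Lmo7+/+ cell held over 30% of the UMIs, 37.7% and 33.0%. At a minimum of 3 gate UMIs they had -0.86 and -0.74. In Lmna, a nuclear lamin, 1 cell held 24 of 75, and its ratio was -1.02 and, at a minimum of 3 gate UMIs, -0.27. Nap1l4, Hspd1, Mcm6, Metap2, Psme3 and Ybx3 had ratios of -1.20 to -0.99 in members and -0.59 to -0.30 in other macrophages. Of 16 dissociation stress genes compared, 1 was lower (Hspa1b) and none was higher, against 0.92% lower and 1.84% higher of all 2826 genes. The list had a median of -0.21 in members and, over 17 genes, -0.22 in other macrophages.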

How the data were processed

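Cell suspensions from MC38 tumors were sequenced on the 10x Genomics platform, 1 library per host genotype. The deposited files are sparse matrices of raw UMI counts per gene and droplet, for which the submitters' processing notes name Cell Ranger 2.1.1 and mm10 while the file headers give software version 3.0.0, so the version behind the deposited counts is uncertain. How cells were called and whether doublets had been taken out before deposit is not given in the sources used here. No cell annotation was used.

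Cells were filtered and gated on raw UMIs as described, with no clustering. The members and gene lists were chosen with earlier results of these data known. Counts were summed over members and over other macrophages of a library and divided by their UMI total to give CPM, with exact Poisson intervals for CPM, Clopper-Pearson intervals for shares, Newcombe intervals for differences of shares and exact binomial intervals for log2 ratios. The floor for a count of 0 was 3 UMIs over the cells summed. No count model was fitted, because each group is 1 library. Ratios over many genes were taken for genes with at least 50 UMIs over the cells compared (50 in members for the comparison of libraries), without the genes of the gates.

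The genes named are the 20 highest and 10 lowest by the weaker of the ratios of both libraries, the 10 highest and 10 lowest between libraries among genes with at least 100 UMIs in members, and list genes. Some of these genes are not reported here. The calculation was tested on simulated data that held counting error only. For members over other macrophages, 9.65% of unchanged genes passed 2-fold in the Lmo7+/+ library and 3.92% in the other, each taken singly. Calls in the text asked for both libraries. Between libraries within members, 1.10% of unchanged genes passed 2-fold.

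Doublets were scored with Scrublet in scanpy 1.11.5. Other steps used Python 3.11.15, numpy 2.4.6, scipy 1.17.1 and pandas 2.3.3, and edgeR 4.0.16 in R 4.3.3 for TMM factors only. Gene positions are from GENCODE M21, in which 32158 of 32285 gene identifiers were found, and promoters from RefSeq on GRCm38.p6. Other settings of the gates, filters, scaling and count minimum were tried.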

Additional observations from a re-analysis of the deposited data

Results flagged for a closer look

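Among genes with at least 100 UMIs in members, 3 values were at least 2-fold in 1 group and lay on opposite sides of 0 in the groups compared, with both counting intervals off 0. None of these differences was tested. The log2 ratio of the library labelled Lmo7-/- over the Lmo7+/+ library for Dusp6 was -1.52 in members and 0.19 in other macrophages. Within libraries, Dusp6 in members over other macrophages had a log2 ratio of 0.45 in the Lmo7+/+ library and -1.26 in the library labelled Lmo7-/-. A single Lmo7+/+ member held 26 of the 69 Dusp6 UMIs, and without it the level was 177 CPM, below the 202 CPM of other Lmo7+/+ macrophages, so the opposite sign within libraries rests on that cell. Members labelled Lmo7-/- were at 96.4 CPM. Without the cell the ratio between libraries thus kept its sign in members but fell under 2-fold. Ccl5 had a log2 ratio of members over other macrophages of -1.53 in the Lmo7+/+ library and 0.50 in the library labelled Lmo7-/-, and 14 of its 16 UMIs in Lmo7+/+ members came from 1 cell. Without that cell the level was 8.27 CPM, further below the 186 CPM of other Lmo7+/+ macrophages. The opposite sign of Ccl5 therefore does not rest on that cell, but it may rest on the threshold. The 36 Lmo7+/+ macrophages with 3 gate UMIs, just outside it, held 119 Ccl5 UMIs, 105 of them in 1 cell. The sign may thus not hold at a minimum of 3 gate UMIs. Smaller or sparser differences of opposite sign, such as those of Ccl3, Ccl4, Rsad2 and Hspa1b, fell below these limits.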

How the results depend on the processing

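No paired analysis was possible because each genotype has 1 library, and for the same reason no replicate could be left out. The share of members moved with the definition of a member, and it was higher in the library labelled Lmo7-/- at each setting tried. It was 4.03% and 9.35% at a minimum of 3 gate UMIs (difference 5.32 percentage points), 1.09% and 2.75% at a minimum of 6 (1.66 points), and 3.48% and 9.66% in cells of 3000 to 12000 UMIs (6.17 points). After thinning it was 7.02% and 15% (8.02 points), and under the stricter cell filter 7.72% in the library labelled Lmo7-/- (4.85 points). Without macrophages that held a UMI of Flt3, Clec9a, Wdfy4 or Cadm1 only 4 and 6 members were left, at 0.536% and 0.857%, and the interval of the difference of 0.321 points (-0.634 to 1.37) included 0, with few cells left to show one. Ratios per gene were not run there or after thinning. The number of genes at least 2-fold higher in members labelled Lmo7-/- was 84 with TMM factors, 241 at a minimum of 20 UMIs and 17 at 100, and the number lower was 13, 205 and 9. A gate minimum of 3 shared 73 of the 120 genes higher and 139 of the 255 lower in members, and 17 of the 52 higher and 7 of the 26 lower between libraries, and a minimum of 6 shared 92, 114, 16 and 7. All 20 named higher genes stayed past 2-fold at each setting run, and of the 10 lower ones 6 did. Of the named genes between libraries, all kept their sign, 6 of the 10 higher ones stayed past 2-fold throughout and 0 of the 10 lower ones did. A change of the count minimum cannot move the ratio of a gene, so those settings repeat the main value, also for genes with fewer UMIs than the minimum. The other settings reuse most of the same cells and do not lessen counting error. For Gins1, with 4 UMIs in Lmo7+/+ members, the interval there was -0.34 to 3.08. The alternatives that dropped cells with Flt3 or Clec9a and barcodes seen in both libraries were added after the data were seen. Lmo7+/+ members gave 249551 UMIs from 42 cells, which limits the precision of their values beside the lack of replicates.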

Other observations

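The counts here stand beside all 9094 genes, of which 1.32% were at least 2-fold higher in members in both libraries and 2.8% lower. Among adhesion genes, Pecam1, which encodes CD31, had log2 ratios of members over other macrophages of 1.83 and 1.20, and Cd9 and Emilin2 were lower, out of 15 genes compared. Of 8 complement genes only C6 was at least 2-fold higher in both libraries. Of 17 genes for engulfment, 3 were lower (Mertk, Cd36 and Gas6) and none was higher, with a median of -0.06 and -0.52. Type 2 dendritic cell markers gave 2 genes to compare, Mgl2 and Clec10a, and both were lower, while Cd209a and Kit were at 0 in members. Of 22 type I interferon response genes, 1 was lower (Isg20), with a median of -0.77 and -0.13. Of 13 inflammatory cytokine genes, Il1a and Osm were lower, and of 12 checkpoint genes Siglece was higher. None of 13 cell cycle genes outside the gate and none of 17 growth factor receptor genes passed 2-fold in both libraries, and the cell cycle list had a median of 0.44 and 0.42.

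Cxcl1 and Cxcl10, chemokines for neutrophils and T cells, were lower in members than in other macrophages of both libraries, with log2 ratios of -2.27 and -1.40 for Cxcl1 and -1.94 and -1.01 for Cxcl10. Both were also among the 4 chemokine genes of 13 that were at least 2-fold higher in members labelled Lmo7-/- than in Lmo7+/+ members, with Ccl5 and Cxcl9. Of all 2826 genes in that comparison, 1.84% were higher. The chemokine list had a median log2 ratio between libraries of 0.80 over 13 genes in members and 0.12 over 17 genes in other macrophages.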
